A study of Mus musculus with 462 samples.

Results

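The 8 Snhg3 promoter deletion clones are lines of mouse embryonic stem cells in which the promoter of Snhg3, a noncoding gene on chromosome 4, was deleted. They were taken as all samples titled as Snhg3 promoter deletions of the date label 150126. They are 8 of 462 samples in the series, 8 of 439 with a count file and 8 of the 151 clones of that date used here. Samples of the date whose titles carry a further mark, S1, were left out, Control clones among them. The parent is an F1 hybrid line of a 129 and a Castaneus mouse, so sequence differences between its chromosomes assign reads to an allele, and all clones compared here share that background and were grown in serum-free 2i/LIF medium with the inhibitors PD0325901 and CHIR99021. Polyadenylated RNA was sequenced after hybrid selection, an enrichment with probes for chosen transcripts, to ask whether a lesion on 1 chromosome changes neighbours on that chromosome alone or on both.

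The reference was 77 unmodified Control clones of the same date without the S1 mark, which came from 25 plates. A further 8 clones of the date carry a promoter deletion of the neighbour Rcc1, and 58 clones carry a promoter deletion at 1 of 8 loci on other chromosomes. Each clone is 1 cell line. The labels name neither the deleted interval nor the modified allele, and do not say which parental strain is which count column. They also do not say whether clones came from separate transfections, so p-values measure the spread between these clones. In the edgeR and limma fits that spread is pooled over deletion and Control clones. The cell labels name a female line, while the growth protocol speaks of male cells.

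Each file gives, per transcript, the counts of the first and of the second allele column. Of 691 transcripts used, 38 lie within 1 Mb of Snhg3, and these are all the captured transcripts of chromosome 4. Allele-assigned counts per clone ran from 106850 to 1553535 in the deletion clones (median 790422) and from 130659 to 1957286 in the Control clones (median 924005). Clone 5 is the clone with 106850 counts. CPM here is the count of both alleles scaled to the allele-assigned total of the clone. It covers only reads over a difference between the strains and does not compare levels between genes. None of 28 markers listed for stem cells, germ layers, epiblast and fibroblasts was in the capture, so the labelled cell type could not be checked against markers.

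Snhg3 is a small nucleolar RNA host gene. Its introns hold the box H/ACA snoRNAs Snora73a and Snora73b, also known as U17, which take part in processing ribosomal RNA and its spliced transcript is noncoding. Promoters of many host genes are strong and active in most cell types. Rcc1, the next gene along the same strand, encodes the guanine nucleotide exchange factor of the GTPase Ran, which sits on chromatin and drives nuclear transport and spindle assembly.

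The promoter sequences of both genes are shown because the deletion targets the first and the allelic result concerns the second. They are 300 bases around the start of Snhg3 (chr4:132353637-132353936, minus strand) and 250 bases before the start of Rcc1 (chr4:132345751-132346000, minus strand), from RefSeq, build GRCm38.p6, and the deleted interval within or beyond the first is not given in the sources used here. The capitals mark an NRF1-type motif, an ETS-type CTTCCGG and a TATAAA, in this order from the 5′ end. Counted from the annotated start of Snhg3, they begin at bases -30, 3 and 23. CTTCCGG and TATAAA thus lie inside the annotated transcript.
Snhg3: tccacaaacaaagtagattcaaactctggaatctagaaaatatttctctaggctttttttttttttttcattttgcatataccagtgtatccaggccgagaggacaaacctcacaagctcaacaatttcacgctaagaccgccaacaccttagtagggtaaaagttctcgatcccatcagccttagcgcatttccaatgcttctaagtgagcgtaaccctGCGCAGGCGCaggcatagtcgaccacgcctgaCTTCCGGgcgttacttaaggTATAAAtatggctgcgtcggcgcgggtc
Rcc1: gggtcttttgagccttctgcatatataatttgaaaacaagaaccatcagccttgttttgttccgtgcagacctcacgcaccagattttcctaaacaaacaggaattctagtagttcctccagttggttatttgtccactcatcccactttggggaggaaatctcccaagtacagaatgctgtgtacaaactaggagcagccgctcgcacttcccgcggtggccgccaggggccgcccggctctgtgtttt
The search covered both strands, and the motifs do not overlap each other in the Snhg3 window. The NRF1-type motif stood in 4.6% of 32851 RefSeq mouse promoters, CTTCCGG in 8.86% and TATAAA in 13.6%. None of the 3 motifs was in the Rcc1 window, which says only that these letters are not in it. The Rcc1 window ends before the start of the gene. Bases past the start, where CTTCCGG and TATAAA lie in Snhg3, were therefore not searched in Rcc1, and the windows cannot be compared for them.

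Snhg3 itself (mm9 chr4:131907848-131909601) was lower in all 8 deletion clones than in every Control clone. The deletion clones held 23.3 to 1418 CPM (median 1188), and the Control clones 2428 to 5368 (median 3692). The groups did not overlap, which was so for 0.212% of 472 tested transcripts on the lower side. The total fell by 1.90 ± 0.20 on the log2 scale (SE, adjusted p = 1.78e-12, edgeR quasi-likelihood test, 8 against 77 clones). Without clones 5 and 7 the change was -1.56. In the 8 groups modified on other chromosomes, which were set against the same Control clones, it ran from -0.31 to 0.11.

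The loss was allelic. In clone 1 the first column held 27 counts of Snhg3 and the second 1334. In clone 2 the columns held 16 and 864, in clone 4 they held 24 and 1718, and in clone 8 they held 22 and 577. These 4 clones were low in the first column. Clone 3 had 633 counts in the first column and 14 in the second, and clone 6 had 1601 and 15. Both were low in the second column. In these 6 clones the low allele gave between 0.928% (clone 6, exact 95% binomial interval 0.52% to 1.53%) and 3.67% (clone 8, 2.32% to 5.51%) of the Snhg3 counts, while the first column gave 41.2% to 55.8% in Control clones. The intervals cover counting error only.

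Clones 5 and 7 stood apart. Clone 5, the shallow library, had 23 counts in the first column and 1 in the second, and its retained allele stood at 11.6% of the Control median of that column. Clone 7 had 17 and 9 counts of Snhg3 among 1115423 allele-assigned counts, and stood at 0.822% of the Control median in the first column and 0.443% in the second, so it was low on both alleles. Its second-column share of 34.6% had an exact interval from 17.2% to 55.7%. The log2 ratio of clone 7 was 0.88, outside the Control range of -0.51 to 0.33, and by the rule its low allele is the second column, but its 26 counts do not separate its alleles from an equal share. The values by side below are given with all 8 clones, and without clone 7 or clone 5 where that changes a call or clearly moves a value.

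The retained allele was below the Control median in all 8 clones. It stood at 76.3%, 76.5% and 75.4% of the Control median of its column in clones 1, 2 and 4, at 67.1% in clone 3, at 58.4% in clone 8 and at 55.6% in clone 6. In clones 1 to 4 it lay inside the Control range of its column, whose lowest values were 1159 CPM (first) and 1269 CPM (second), and in clones 5 to 8 it lay below. In the fit by allele the retained allele was lower by 1.63 ± 0.26 on the log2 scale, a description without a test because the side is set by these counts. It was -0.71 ± 0.11 without clone 7 and -0.61 ± 0.10 without clones 5 and 7.

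**Figure D1:**
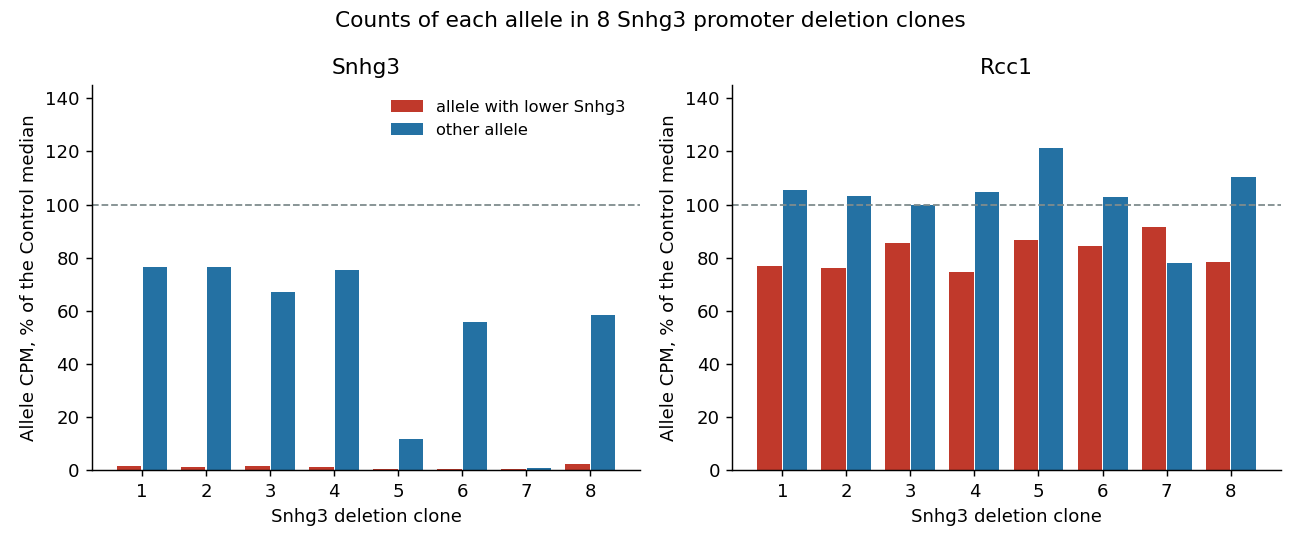
Bars give the CPM of each allele as a percentage of the Control median of the same column, for Snhg3 (left) and Rcc1 (right), by deletion clone. The red allele is the one with lower Snhg3 and the dashed line is 100%. Snhg3 is near 0 on the red allele of all 8 clones and on both alleles of clone 7, and the red bar of Rcc1 is below the blue one in every clone except clone 7.

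Rcc1 (mm9 chr4:131887834-131901665, 6.182 kb from Snhg3) gave fewer reads from the chromosome with lower Snhg3. In the 77 Control clones its log2 ratio of first to second column was between 0.14 and 0.48 (median 0.31). In clones 1, 2, 4 and 8, low in the first column, the ratio was -0.12, -0.11, -0.16 and -0.16. In clones 3, 5 and 6, low in the second column, it was 0.56, 0.82 and 0.62. The 4 former lay below every Control clone and the 3 latter above every Control clone. Clone 7 had a ratio of 0.10, also below every Control clone. All 8 ratios lay outside the Control range, and of 306 transcripts with enough counts in every deletion clone this was so for 0.654%, namely Rcc1 and Snhg3, of which Snhg3 sets the side.

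With each clone signed by its Snhg3 side, the ratio of Rcc1 shifted by -0.33 ± 0.03 on the log2 scale (SE, 95% interval -0.40 to -0.26, limma adjusted p = 1.46e-12, 8 against 77 clones). A negative shift means fewer reads from the allele with lower Snhg3. The shifts were -0.43, -0.42, -0.25, -0.47, -0.51, -0.31, 0.21 and -0.47 in clones 1 to 8, so 7 of 8 lay on the side of Snhg3 (exact sign test, two-sided, p = 0.0703). The SD of these 8 shifts was 0.24, while the SD of the ratio was 0.07 among Control clones. The SE, interval and adjusted p of this and the other signed shifts use a spread pooled over both groups. They do not measure the spread of the deletion clones alone. Without clone 7 the shift was -0.41 (limma adjusted p = 8.39e-22). Rcc1 was the sole transcript called of 454 tested this way, a background of 0.22%.

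The test that ignores the side gave the same transcript. The mean absolute deviation of the ratio of Rcc1 was 0.38 ± 0.11 (SD) in the deletion clones and 0.05 ± 0.04 in the Control clones (two-sided permutation test, 100000 resamples, p = 2.0e-05, the smallest these resamples can give, adjusted p = 0.00455). Of 455 transcripts 1.1% were called, and 2 of these 5 lie within 1 Mb, Snhg3 and Rcc1.

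By level, the low-Snhg3 allele of Rcc1 stood between 74.5% (clone 4) and 78.4% (clone 8) of the Control median of its column in clones 1, 2, 4 and 8, and at 85.5%, 86.5% and 84.3% in clones 3, 5 and 6. The other allele of the same clones stood between 99.9% (clone 3) and 121% (clone 5). Neither allele left the Control range, which ran from 61.3% to 129% in the first column and from 70.1% to 126% in the second, so it is the ratio within a clone that did not overlap. In clone 7 the first column stood at 77.9% and the second at 91.7%, and its total of Rcc1 was the lowest of the 8 at 83.0% of the Control median.

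In a fit of the single-allele counts with the clone as a block, Rcc1 fell by 0.34 ± 0.06 on the low-Snhg3 allele (SE, limma-voom adjusted p = 4.43e-06), and by 0.36 without clone 7. On the other allele the estimate was -0.04 ± 0.06 (adjusted p = 0.642), and without clone 7 it was 0.04. Of 471 transcripts 38.4% were called on the low-Snhg3 allele (19.7% lower) and 35.9% on the other allele, so a call on a single allele has a high background, and the difference between the alleles is tested by the signed shift above. Summed over both alleles Rcc1 had 5238 to 6607 CPM in the deletion clones (median 5678) and 4063 to 7944 in Control clones (median 6311). These overlapped, with a log2 fold change of -0.15 ± 0.07 (edgeR adjusted p = 0.11), which passed without clone 5 (-0.20, adjusted p = 0.04).

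The ratio also varied over the chromosome. The median deviation of the log2 ratio over 29 chromosome 4 transcripts ran from -0.10 (clone 4) to 0.12 (clone 5), and the Control clones ran from -0.08 to 0.09. Clones 4 and 5 lay outside that range, and 6 of 8 clones deviated toward their low-Snhg3 side. Relative to the chromosome 4 transcripts more than 500 kb from Snhg3, the shift of Rcc1 was -0.32.

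**Figure D2:**
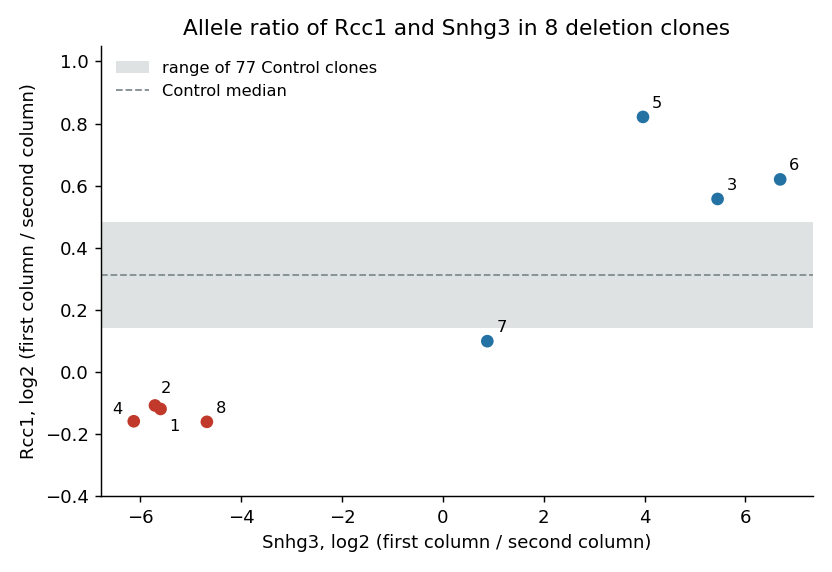
Log2 ratio of first to second allele column of Rcc1 (vertical) against that of Snhg3 (horizontal) in the 8 numbered deletion clones, with the Control range (grey band, 0.14 to 0.48) and median (dashed) of Rcc1. Clones low in Snhg3 on the first column lie under the band, clones 3, 5 and 6 lie over it, and clone 7, low on both alleles, lies just under it at 0.10.

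The other neighbours showed no called allelic shift. Phactr4 (chr4:131911839-131978361), a regulator of protein phosphatase 1 and actin, lies nearest to Snhg3 at 2.237 kb on the far side from Rcc1. Its signed shift was -0.01 ± 0.06 (95% interval -0.13 to 0.11, adjusted p = 0.987). Clone 5 was at 0.85 there from 89 counts, and without that clone the shift was -0.13 ± 0.05 (unadjusted p = 0.0163, adjusted p = 0.999). Without clones 5 and 7 it was -0.16 ± 0.06 (adjusted p = 0.619), so the estimate for the nearest gene rests on clone 5. Trnau1ap (chr4:131867678-131885453), a factor of selenocysteine incorporation 22.394 kb away, had a shift of -0.01 ± 0.04, or -0.05 without clone 7. Snhg12 (chr4:131864593-131866939), a second snoRNA host gene and host of Snora16a, Snora44 and Snora61, had -0.06 ± 0.04. Taf12 (chr4:131830290-131849244), a subunit of the general transcription factor TFIID, had -0.17 ± 0.06 with an unadjusted p of 0.00606 and an adjusted p of 0.474. Clone 2, at -0.60, was the lowest there and clones 3 and 6 were at 0.02 and 0.01. Rab42 (chr4:131858109-131859271), a small GTPase, could be scored in 5 clones, at -0.35 ± 0.33.

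Over the 35 local transcripts other than Rcc1 the shifts ran from -0.54 to 0.72 with a median of -0.03, beside a median of 0.00 over all tested. Of these 35, 5 had an unadjusted p under 0.05, and with Rcc1 they were 6 of the 24 such transcripts among 454. The 5 were Ythdf2 (-0.34 ± 0.13), Taf12, Atpif1 (-0.11 ± 0.04), Srsf4 and Ptpru (0.55 ± 0.20). The shift of Ythdf2 was about as large as that of Rcc1 but with a wider SE, and 5 of its 8 clones lay on the side of Snhg3. The lowest adjusted p among the 35 was 0.474, and 0.0668 without clone 7. The outer values came from transcripts of few counts. Among the 20 with a median of at least 500 allele counts per deletion clone, the shifts ran from -0.17 (Taf12) to 0.02 (Stx12) and the ends of their 95% intervals from -0.30 to 0.19. Srsf4, Med18 and Sesn2, a splicing factor, a Mediator subunit and a stress-induced regulator of growth signalling, were called on the low-Snhg3 allele and not on the other, but their signed shifts of -0.06, -0.06 and -0.04 did not pass. Without clone 7 Sesn2 was no longer called on the low-Snhg3 allele (adjusted p = 0.0708). Without clone 5 Srsf4 was called on the other allele as well (-0.16 ± 0.06, limma-voom adjusted p = 0.0394), and its signed shift was -0.03.

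**Figure D3:**
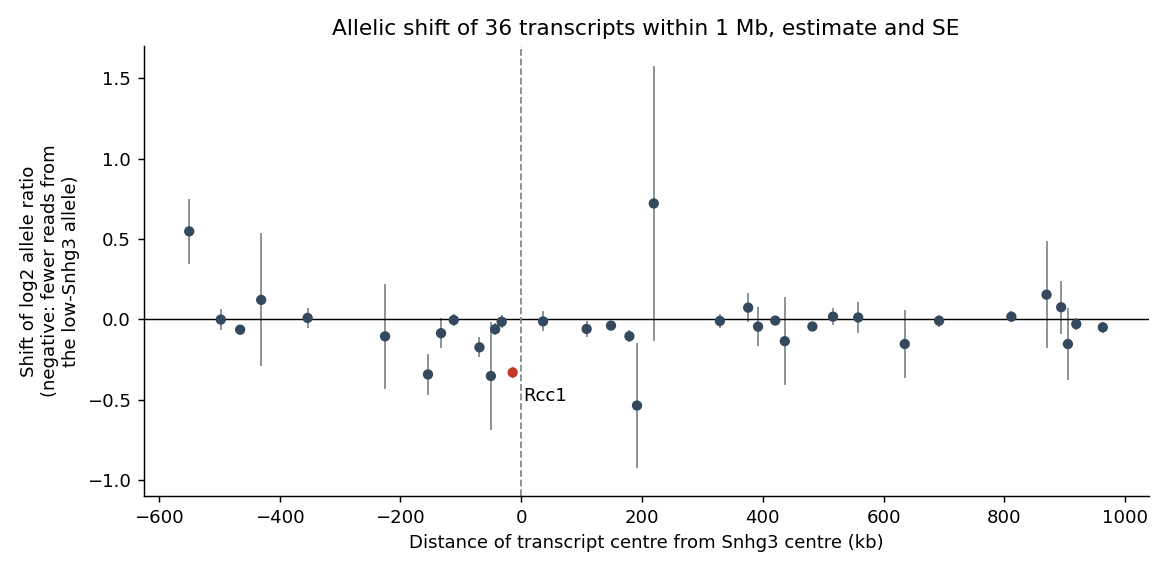
Signed shift of the log2 allele ratio (points, with SE bars) of 36 local transcripts against the distance of the transcript's centre from that of Snhg3. Rcc1 (red, -0.33) is the sole called transcript, and the widest bars belong to transcripts with few counts.

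Total levels near Snhg3 changed in both directions. Of 37 local transcripts tested, 10 were higher and 8, Snhg3 included, lower (48.6%), against 36.9% of all 472 tested, 15.3% higher and 21.6% lower. In the 8 groups modified on other chromosomes, set against the same Control clones, between 18.9% and 51.4% of the local transcripts were called, and plate alone called 91.9% of transcripts among Control clones. The part of plate and culture in these changes was not tested, because plates are named only for Control clones. The median log2 fold change was 0.01 locally and -0.03 over all.

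Among receptors and signalling genes, Oprd1, the delta opioid receptor, was higher by 1.61 ± 0.30 on the log2 scale (adjusted p = 1.37e-05). It held 0 to 61.8 CPM (median 49.6) in the deletion clones and 0 to 50.6 (median 11.1) in Control clones. The groups overlapped, since clone 5 had no counts and clone 2 had 6. Its change in the 8 groups modified elsewhere ran from -1.06 to 1.69, so 1 of them reached a larger value. Fgr, a Src-family kinase, was higher by 0.96 ± 0.19 (149.7 to 314.1 CPM, Control 31.5 to 272.7). Map3k6, a stress-activated kinase, was higher by 0.53 ± 0.15. Ptafr, the receptor of platelet-activating factor, was lower by 0.62 ± 0.24 (adjusted p = 0.0363), a call that ended in 8 of 14 alternatives. Themis2, a signalling adaptor of immune cells, had 15.7 to 59.2 CPM (median 47.5) against 19.3 to 181.3 (median 99.5) in Control clones. It fell by 1.21 ± 0.20 (adjusted p = 2.99e-06), and it ranged from -0.44 to 0.17 in the 8 groups modified elsewhere.

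Among nuclear proteins, Ahdc1, which carries AT-hook motifs, stood at 6097 to 6629 CPM (median 6324) in the deletion clones, above all Control clones, whose highest was 5831 (median 3977). It was higher by 0.73 ± 0.14 (adjusted p = 2.19e-05), and by 0.44 against the 58 clones modified elsewhere, among which 8551 CPM was reached. Snhg3 and Ahdc1 were the only tested transcripts whose totals did not overlap with Control, 0.212% on each side. Eya3, a transcriptional coactivator with phosphatase activity, was higher by 0.27 ± 0.05 (adjusted p = 7.45e-06), at 3884 to 4657 CPM against 2556 to 4352. Gmeb1, a DNA-binding modulator of glucocorticoid responses, was higher by 0.42 ± 0.09. Med18 was lower by 0.18 ± 0.06 (adjusted p = 0.0195), a call that ended in 3 of 14 alternatives.

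Among membrane, cytoskeletal and trafficking genes, Epb4.1, the membrane-skeleton protein 4.1, was higher by 0.47 ± 0.11. Cd164l2, a sialomucin-like membrane protein, was higher by 0.68 ± 0.17. Stx12, a SNARE protein of endosomes, and Wasf2, an actin nucleation factor of the WAVE complex, were higher by 0.21 ± 0.08 and 0.26 ± 0.11 with adjusted p of 0.0451 and 0.0471. Both calls ended in 10 of 14 alternatives.

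Of mitochondrial genes, Atpif1, the inhibitor of ATP synthase, fell by 0.28 ± 0.09 and Mecr, a reductase of mitochondrial fatty acid synthesis, by 0.30 ± 0.11. Of the nearest genes, Snhg12 was lower by 0.28 ± 0.08 (adjusted p = 0.00388). Its change was -0.05 (adjusted p = 0.554) against the clones modified elsewhere, whose groups ranged from -0.54 to -0.07 relative to Control. Trnau1ap was lower by 0.31 ± 0.12 (adjusted p = 0.0379), which did not pass against the clones modified elsewhere (adjusted p = 0.101). Phactr4 had 0.22 ± 0.10 (adjusted p = 0.0617). Its low clone was the shallow clone 5 with 832.9 CPM, and without that clone it passed at 0.30 (adjusted p = 0.0119). The other local transcripts tested were not called, and Gpr3 had too few counts to test.

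Of the 17 local transcripts called besides Snhg3, 11 were called in all 14 alternatives (Oprd1, Fgr, Map3k6, Themis2, Ahdc1, Eya3, Gmeb1, Epb4.1, Cd164l2, Atpif1 and Mecr) and 13 were called against the clones modified elsewhere, a reference with 33.5% of 469 transcripts called, 13.6% higher and 19.8% lower. In the single-allele fit, 18 of 36 local transcripts were called on both alleles, all 18 in the same direction on each, as were 152 of 471 overall. Without clone 7 these were 16 and 124, again in the same direction on each. Themis2, for instance, was lower by 1.41 on the low-Snhg3 allele and by 1.08 on the other, and Eya3 was higher by 0.27 and 0.29.

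**Figure D4:**
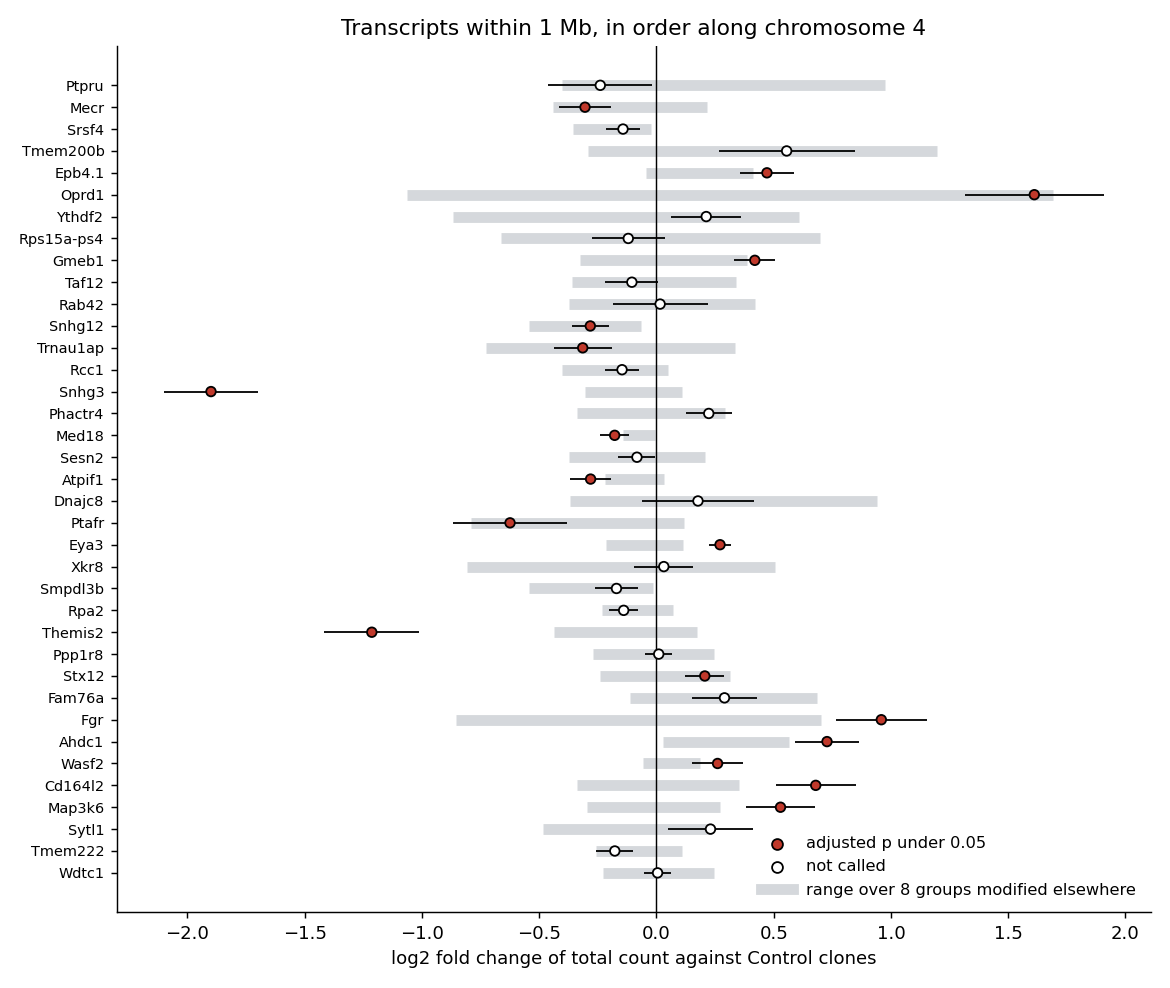
Log2 fold change of the total count (points with SE bars) of 37 transcripts within 1 Mb, in chromosome order, with grey bars for the range over 8 groups modified on other chromosomes against the same Control clones. Snhg3, Themis2, Eya3 and Fgr are among those outside their grey bar, while Snhg12, Trnau1ap and Rcc1 lie inside it.

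The neighbouring Rcc1 promoter deletion shared some of these changes and not others. In its 8 clones Rcc1 had 1970 to 3242 CPM, and the low-Rcc1 allele of each clone was the second column in 6 and the first in 2. Snhg3 in these clones had 2587 to 3515 CPM, within the Control range, with a log2 change of -0.37 (adjusted p = 0.0611). Its allele ratio, signed by the Rcc1 side, shifted by 0.04 ± 0.05 (limma adjusted p = 0.82), so Snhg3 showed no called shift when Rcc1 was deleted while Rcc1 shifted when Snhg3 was. That contrast was not tested as a difference, because each row sets the side in its own group.

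Trnau1ap differed between the deletions. Its shift was -0.01 in Snhg3 clones and 0.23 in Rcc1 clones, where it was the sole call of 477 transcripts (0.21%). This is a difference of -0.25 ± 0.06 (SE, limma adjusted p = 0.0287), the sole call of 452 transcripts (0.221%). In total it was 0.95 ± 0.16 lower in Snhg3 than in Rcc1 clones on the log2 scale (edgeR adjusted p = 7.66e-07): 1555 to 1979 CPM against 3039 to 4157. The CPM ranges of Eya3, Gmeb1 and Snhg12 did not overlap between these groups either. Nor did those of further transcripts, among them Fgr, Ythdf2, Themis2, Mecr and Myc. The share over all transcripts was not counted, so these are examples only. The total of Eya3 differed by 0.54 ± 0.07 and that of Gmeb1 by 0.76 ± 0.12, both higher in Snhg3 clones. Other changes were in both groups, set against the same Control clones. Ahdc1 was 0.40 higher in Rcc1 clones (adjusted p = 0.012), Epb4.1 0.42 (adjusted p = 0.00108) and Cd164l2 0.57 (adjusted p = 0.0033). Their differences between the deletions did not pass, with adjusted p of 0.146, 0.808 and 0.735. Of all 480 transcripts 54% differed in total between the groups, and 51.4% of the local ones, so such differences were common.

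Outside chromosome 4, 156 of 435 transcripts were called by total (35.9%), 62 higher and 94 lower. Those with the largest change were named. Myc (chr15:61816896-61821916), the growth-promoting transcription factor, fell by 1.99 ± 0.30 on the log2 scale (adjusted p = 2.41e-07). It held 336.7 to 842.3 CPM (median 461) against 282.8 to 3560 (median 2149) in Control clones, so all 8 clones lay within the Control range, at its low end. Against the clones modified elsewhere, whose group medians ran from 846.3 to 2520 CPM, the change was -1.63. Plate means of Control clones ran from 489.5 to 3369 CPM.

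Bhlhe40, a transcriptional repressor of the circadian and hypoxia response, fell by 1.69 ± 0.30 to a median of 820.3 CPM (Control median 2625). Slc16a3, the lactate exporter MCT4, fell by 2.01 ± 0.53 and Emp1, an epithelial membrane protein, by 2.40 ± 0.48. Both also varied between the 8 groups modified elsewhere, Slc16a3 from -2.78 to 0.38 and Emp1 from -2.59 to 1.37, while Myc ran from -1.20 to 0.26 and Bhlhe40 from -1.32 to 0.67. Xist (X:100655712-100678572), the noncoding RNA that coats the inactive X chromosome, fell by 1.56 ± 0.24, with 74.9 to 188.5 CPM (median 139.5) against 110.5 to 1459 (median 393.7). Its median lay below the lowest group median of the clones modified elsewhere (218 CPM), and its log2 change in those groups ran from -0.81 to 0.16. Phf15, a PHD finger protein, fell by 1.60 ± 0.38, and in those groups ran from -1.23 to 1.24. Slc32a1, a vesicular transporter of inhibitory transmitters, Nppc, a natriuretic peptide precursor, and Krt85, a hair keratin, had Control medians of 12.3, 8.7 and 14.1 CPM. Their log2 changes were -2.0, -1.59 and -1.58. Aatk, a kinase, rose by 2.40 ± 0.46, from a Control median of 8.1 CPM to 93.1. Its ranges overlapped, at 18.7 to 226.6 CPM against 0 to 170.9 in Control clones. In the groups modified elsewhere its log2 change ran from -1.30 to 1.56.

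By allele, 3 transcripts outside the window were called in the test that ignores the side, Myc, Krt8 and Itm2c, and none in the signed test (18 with an unadjusted p under 0.05). Krt8 is a keratin of simple epithelia and Itm2c a membrane protein. The ratio of Itm2c was above its Control median in all 8 clones whichever allele was low in Snhg3, from -1.19 to -0.89 against a Control median of -1.28, and 5 of 8 lay outside the Control range. None of the 3 was called against the clones modified elsewhere (adjusted p = 0.221, 0.208 and 0.931 in the order Myc, Krt8, Itm2c).

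**Figure D5:**
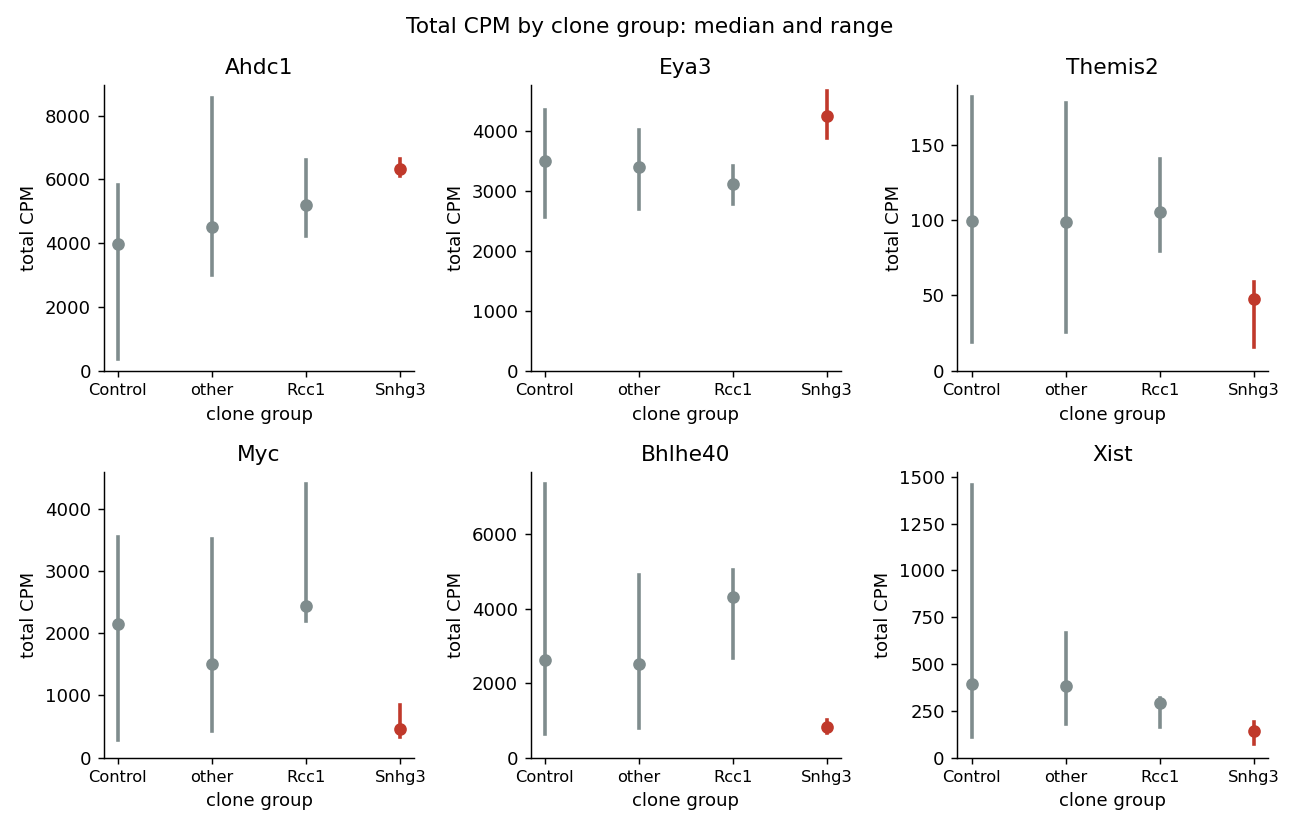
Total CPM of 6 transcripts in 77 Control clones, 58 clones modified on other chromosomes, 8 Rcc1 deletion clones and 8 Snhg3 deletion clones, as median (point) and range (line). Ahdc1 in Snhg3 clones lies above all Control clones, Myc and Bhlhe40 lie at the low end of the Control range, and 7 of 8 Xist values lie within it and 1 below.

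Of 18 listed snoRNA host genes and related transcripts 4 were captured, of which none rose and 3 fell, where 36.9% of all transcripts were called and 21.6% fell. These were Snhg3, the deleted gene, Snhg12 and linc1329, the last by 0.26 ± 0.06 (adjusted p = 0.00111). Against clones modified elsewhere neither Snhg12 (adjusted p = 0.554) nor linc1329 (-0.11, adjusted p = 0.832) was called. That reference includes 5 clones with a promoter deletion of Snhg17, the locus of the linc1329 row. For linc1329 the comparison therefore cannot show whether the fall was shared. The median over the 4 was -0.27. Snhg11 had -0.12 (adjusted p = 0.71). Of 18 listed loci that the series targets, 9 were captured, of which 2 rose and 4 fell, with a median of -0.15, beside 15.3% and 21.6% of all transcripts. Gpr19, an orphan receptor, fell by 0.65 ± 0.12, linc1423 by 1.22 ± 0.27 and linc2025 by 0.45 ± 0.11, while Crlf3, a cytokine receptor-like protein, rose by 0.27 ± 0.10 and linc1536 by 0.32 ± 0.13. Against clones modified elsewhere, which include those deleted at these loci, Gpr19 was called (adjusted p = 0.0129) and Crlf3, linc1536, linc1423 and linc2025 were not (adjusted p = 0.428, 0.367, 0.0818 and 0.765). None of 19 naive pluripotency genes was in the capture.

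The spread among the deletion clones lay within that of the other modified groups. The median SD of log2 CPM over 350 transcripts was 0.16 among the 8 clones, 0.13 without clone 5, 0.34 among Control clones and 0.22 among Control clones of a plate. In the 8 groups modified elsewhere it ran from 0.11 to 0.20.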

How the data were processed

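Poly(A)+ RNA-seq libraries with hybrid selection were analysed. The authors deposited raw counts per transcript, 1 column per allele, without normalization. Coordinates are mm9, per the submitters' processing notes; no label names an aligner or counter. Of 692 rows 1 with the counts of an overlapping row was dropped, and 667 of 691 names matched the reference tables. Libraries held 103716 to 2932173 allele-assigned counts, and none of 4278 pairs of clones agreed within sampling noise.

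Totals of both alleles were fitted in edgeR 4.0.16 (quasi-likelihood, TMM, mean count of at least 10). Signed ratios (pseudocount 0.5, at least 20 counts) and voom values per allele, with the clone as block, were fitted with limma 3.58.1. Absolute deviations were tested by permutation. P-values were Benjamini-Hochberg adjusted over all rows, threshold 0.05. DESeq2 1.42.0, other references and other settings were alternatives. R 4.3.3 and Python 3.11.15 were used. Named genes were Snhg3, the rows within 1 Mb, up to 10 outside by total, up to 6 by allele, and list members. Members and lists were chosen with earlier results of these data known. The fits were tested on simulated data, in which clones were drawn without differences between plates, so the false calls found there do not carry over to totals here.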

Additional observations from a re-analysis of the deposited data

Results flagged for a closer look

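Of 29 sets of clone values checked, 5 held a clone far from the other 7, where chance alone flags about 1 in 20. The shift of Rcc1 was 0.212 in clone 7, the highest, while the other clones lay between -0.51 and -0.25. Clone 7 is the clone with few Snhg3 counts on either allele.

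The remaining 4 flags fell on clone 5, the library with 106850 counts. Phactr4 had 832.9 CPM there, the lowest, and a shift of 0.854, the highest, from 89 counts. Myc had 842.3 CPM, the highest of the 8, and Xist had 74.9 CPM, the lowest, from 8 counts. The part of depth in these values was not tested.

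Trnau1ap was the transcript whose signed shift differed between Snhg3 and Rcc1 deletion clones by a test of the difference itself, by -0.247 (limma adjusted p = 0.0287).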

How the results depend on the processing

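No paired analysis was possible because the labels number plates for Control clones alone and give the deletion clones no number that a Control clone shares. Of 1201 values recomputed under alternatives, 1085 kept their direction and their side of the threshold. The signed shift of Rcc1 stayed called throughout, from -0.41 to -0.30 when each clone was left out in turn, and the total of Snhg3 stayed called from -2.0 to -1.72. The transcripts called by signed shift rose from 1 to 2, Serhl being added, on the allelic fraction (2), against clones modified elsewhere (2) and without clone 6 (1 to 2 over the clones left out). Those called by absolute deviation were 3 to 6 with a clone left out, 3 without clones 5 and 7, and 49 with Control clones summed per plate, of which 4 local; summing lowers the spread of the reference by construction. With a window of 200 kb 6 local totals were called. The estimate for Rcc1 on the other allele reversed to 0.073 against clones modified elsewhere and to 0.016 without clones 5 and 7, and ran from -0.065 to 0.039 with a clone left out. Of 26 reversed values none passed the threshold, and the cause was not tested. Against clones modified elsewhere these were Rab42 (-0.072), Dnajc8 (-0.019), Smpdl3b (0.13), Wdtc1 (-0.048) and the absolute deviation of Itm2c (-0.054). Without clones 5 and 7 they were Xkr8 (-0.014), linc1509 (-0.0039) and the signed shift of Stx12 (-0.072). With a clone left out Rab42 ran from -0.052 to 0.084, Xkr8 from -0.015 to 0.056, Ppp1r8 from -0.0061 to 0.017 and Wdtc1 from -0.020 to 0.011, and the signed shifts of Phactr4 ran from -0.13 to 0.041, of Trnau1ap from -0.048 to 0.0049 and of Stx12 from -0.035 to 0.055. The ratio relative to chromosome 4 rows outside 1 Mb was not run, since no such row is captured, and rows over 500 kb away were used, a choice made after seeing the data, as were leaving out clones 5 and 7 together and the single-allele fit against clones modified elsewhere. Depth limits clone 5, which has 106850 counts in all.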
